A study of Mus musculus with 22 samples.

Results

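The genes described here encode the machinery that folds proteins in the endoplasmic reticulum (ER) and disposes of those that fail to fold, together with their regulators. Of the 37 listed gene symbols, chosen as the XBP1 and ATF6 arm of the unfolded protein response, 36 were rows of the expression table of 15725 genes, and all 36 passed the filter on low values that left 11070 genes to test. Ero1lb was the 1 symbol without a row. The rule that lists the members uses function and no measured value, but the list was drawn up with earlier results of these data known.

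Expression was measured by RNA sequencing of polyadenylated RNA in 22 libraries. The cells were microglia, macrophages that live in the brain, taken from mice and shaken off mixed glia from the cerebral cortex of newborn (1 to 3 day old) C57BL/6J mice. The groups were LPS+Baf A1 (n = 5), LPS+CLA (n = 6), LPS+siAtg5 (n = 5), LPS+dNC (n = 3) and LPS (n = 3). Baf A1 is bafilomycin A1, a blocker of the proton pump that acidifies lysosomes, given at 10 nM. CLA, which the labels do not spell out, was given at 50 nM. LPS+siAtg5 cultures had been transfected for 48 h with 50 nM of an siRNA against Atg5, a gene needed to build autophagosomes, and the LPS+dNC cultures are the comparator that the design names for them. The protocol gives 48 h of transfection with control siRNAs too, and LPS+dNC, which the labels do not spell out, was read as that control. All 5 groups, the comparators included, received lipopolysaccharide (LPS), a glycolipid of bacterial outer membranes that triggers inflammatory signalling, at 100 ng/ml during 24 h, and no culture without LPS was analysed here. Whether libraries of a group stem from separate cultures is not stated in the labels, and p-values therefore reflect only the spread between these libraries, which may be technical.

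Secreted and membrane proteins enter the ER through the Sec61 channel, are bound by chaperones such as BiP, receive disulfide bonds from protein disulfide isomerases and leave in COPII vesicles. Proteins that stay misfolded are pulled back through a channel of the SEL1L, HRD1 and derlin proteins and degraded by the proteasome, which is called ER-associated degradation. When misfolded proteins accumulate, the sensors IRE1 (gene Ern1) and ATF6 and the kinase PERK are activated. IRE1 splices the mRNA of Xbp1, ATF6 is cut to a transcription factor, and both products bind promoter elements such as the ER stress response element (ERSE), while PERK acts through translation and the factor ATF4. Values per gene symbol cannot tell spliced from unspliced Xbp1 mRNA, nor show the cleavage of ATF6.

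The promoters of the members were searched for these elements. The genes were listed as the XBP1 and ATF6 arm, so an excess of such elements over all genes is largely fixed by the choice of the list and is given as a description. RefSeq promoters (GRCm38.p6, 250 bases before to 50 after the transcription start) were given for 29 of the 36 genes. The ERSE, which is CCAAT, then 9 bases of any kind, then CCACG, read on both strands, was found in 8 of the 29 (27.6%), against 37 of 27025 genes with a promoter (0.137%) and 14 of 8990 genes that were also tested here (0.156%). ERSE-II, which is ATTGG, any base, then CCACG, was found in 2 of the 29 (6.90%), against 12 of 27025 genes (0.0444%). The matches are printed here with 10 bases on either side, 5′ to 3′ on the strand that carries the match, with the fixed bases of the motif in capitals. The first 9 are ERSEs and the last 2 are ERSE-II, and the 9 base spacer of the ERSE differs in every one of the 9 matches.
Hspa5 (chr2:34772025-34772043): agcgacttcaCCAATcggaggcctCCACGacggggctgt
Calr (chr8:84847075-84847093): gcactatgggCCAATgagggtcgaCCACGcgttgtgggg
Hsp90b1, far match (chr10:86705638-86705656): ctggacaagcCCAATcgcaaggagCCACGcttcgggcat
Hsp90b1, near match (chr10:86705533-86705551): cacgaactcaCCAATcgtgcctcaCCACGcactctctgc
Canx (chr11:50325800-50325818): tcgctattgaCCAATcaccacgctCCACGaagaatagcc
Pdia6 (chr12:17266491-17266509): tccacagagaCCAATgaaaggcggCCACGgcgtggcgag
Dnajc3 (chr14:118937827-118937845): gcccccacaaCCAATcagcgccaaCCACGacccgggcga
Creld2 (chr15:88819520-88819538): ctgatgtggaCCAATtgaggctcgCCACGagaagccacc
Syvn1 (chr19:6046532-6046550): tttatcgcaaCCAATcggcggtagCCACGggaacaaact
Herpud1 (chr8:94386377-94386387): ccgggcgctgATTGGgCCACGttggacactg
Dnajb11 (chr16:22857852-22857862): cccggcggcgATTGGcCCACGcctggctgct

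The XBP1 site UPRE, spelled TGACGTGG, was found in the promoters of Sec24d and Txndc5 (2 of 29, against 0.714% of genes), and TGACGTGA in that of Hspa5 (1 of 29, against 0.507%). CCACG outside any ERSE or ERSE-II was found in 20 of 29 (69.0%), against 35.4% of all genes and 52.2% of the tested genes. A match is a description of letters and not a shown binding site. The promoters of Hspa5, which encodes the chaperone BiP, and of Syvn1, which encodes the ubiquitin ligase HRD1, are shown whole because both hold an ERSE on the strand of the gene and their transcripts moved differently, as given below. The ERSE spans positions -65 to -47 from the start of Hspa5 (chr2:34771840-34772139, + strand) and -44 to -26 from that of Syvn1 (chr19:6046326-6046625, + strand), and its fixed bases are in capitals.
Hspa5: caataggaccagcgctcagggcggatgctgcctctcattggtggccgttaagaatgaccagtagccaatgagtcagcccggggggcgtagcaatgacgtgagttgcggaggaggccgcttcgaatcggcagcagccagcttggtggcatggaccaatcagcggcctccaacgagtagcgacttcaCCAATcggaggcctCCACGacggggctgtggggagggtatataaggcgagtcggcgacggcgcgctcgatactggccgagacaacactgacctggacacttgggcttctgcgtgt
Syvn1: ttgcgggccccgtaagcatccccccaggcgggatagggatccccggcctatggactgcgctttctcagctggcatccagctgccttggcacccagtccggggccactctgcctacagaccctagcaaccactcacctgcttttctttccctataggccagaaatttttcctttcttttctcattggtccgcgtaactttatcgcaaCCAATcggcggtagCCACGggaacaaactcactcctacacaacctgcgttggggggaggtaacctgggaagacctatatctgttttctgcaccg

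Across the whole table, summed FPKM per library (fragments scaled by transcript length and mapped fragments, the deposited unit) ran from 469750 to 575125, and total counts and depth are unknown. Microglial genes were high in every group, with Itgam at 521 to 1126 FPKM and Csf1r at 122 to 1151 FPKM, but homeostatic markers were low, with Tmem119 at 1.51 to 6.84 FPKM in all libraries and Cx3cr1 at 0.11 to 0.27 FPKM in LPS+dNC. Atg5 averaged 13.1 ± 0.365 FPKM in LPS+siAtg5 (SD, n = 5), with libraries between 12.59 and 13.51 FPKM, against 22.3 ± 1.67 FPKM in LPS+dNC (SD, n = 3), with libraries between 21.36 and 24.26 FPKM. LPS+siAtg5 libraries stood apart: their median gene was at 4.53 to 4.8 FPKM, against 2.62 to 3.25 FPKM in the other groups. Within groups, LPS+CLA replicate 2, LPS+dNC replicate 1 and LPS replicate 3 lay apart from their mates. The SD over all genes of their log2 difference to the mates was 0.253, 0.358 and 0.267, against at most 0.130, 0.249 and 0.185 for the other libraries of the same groups.

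Together the 36 genes made up 0.939% ± 0.0149 of summed FPKM in LPS+Baf A1 (SD, n = 5), 0.984% ± 0.0649 in LPS+CLA (SD, n = 6), 0.731% ± 0.0112 in LPS+siAtg5 (SD, n = 5), 0.410% ± 0.0265 in LPS+dNC (SD, n = 3) and 0.540% ± 0.0180 in LPS (SD, n = 3). The lowest library of each autophagy-blocked or CLA-treated group, at 0.915%, 0.858% and 0.720% in that order, lay above the highest LPS library at 0.556% and the highest LPS+dNC library at 0.430%. The highest of the 5 group means was in LPS+Baf A1 for 16 genes and in LPS+CLA for 16, in LPS+dNC for 3 and in LPS for 1. The lowest was in LPS+dNC for 22 genes and in LPS for 11. Under median-of-ratios scaling, described below, LPS+Baf A1 had the highest mean for 21 genes and LPS+CLA for 10. How all genes divide in this way is not given here. Calr was the most abundant of the genes described, at 889.54 to 1131.76 FPKM in LPS+CLA, and Pdia5 the least, at 0.04 to 0.59 FPKM in LPS+dNC.

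**Figure D1:**
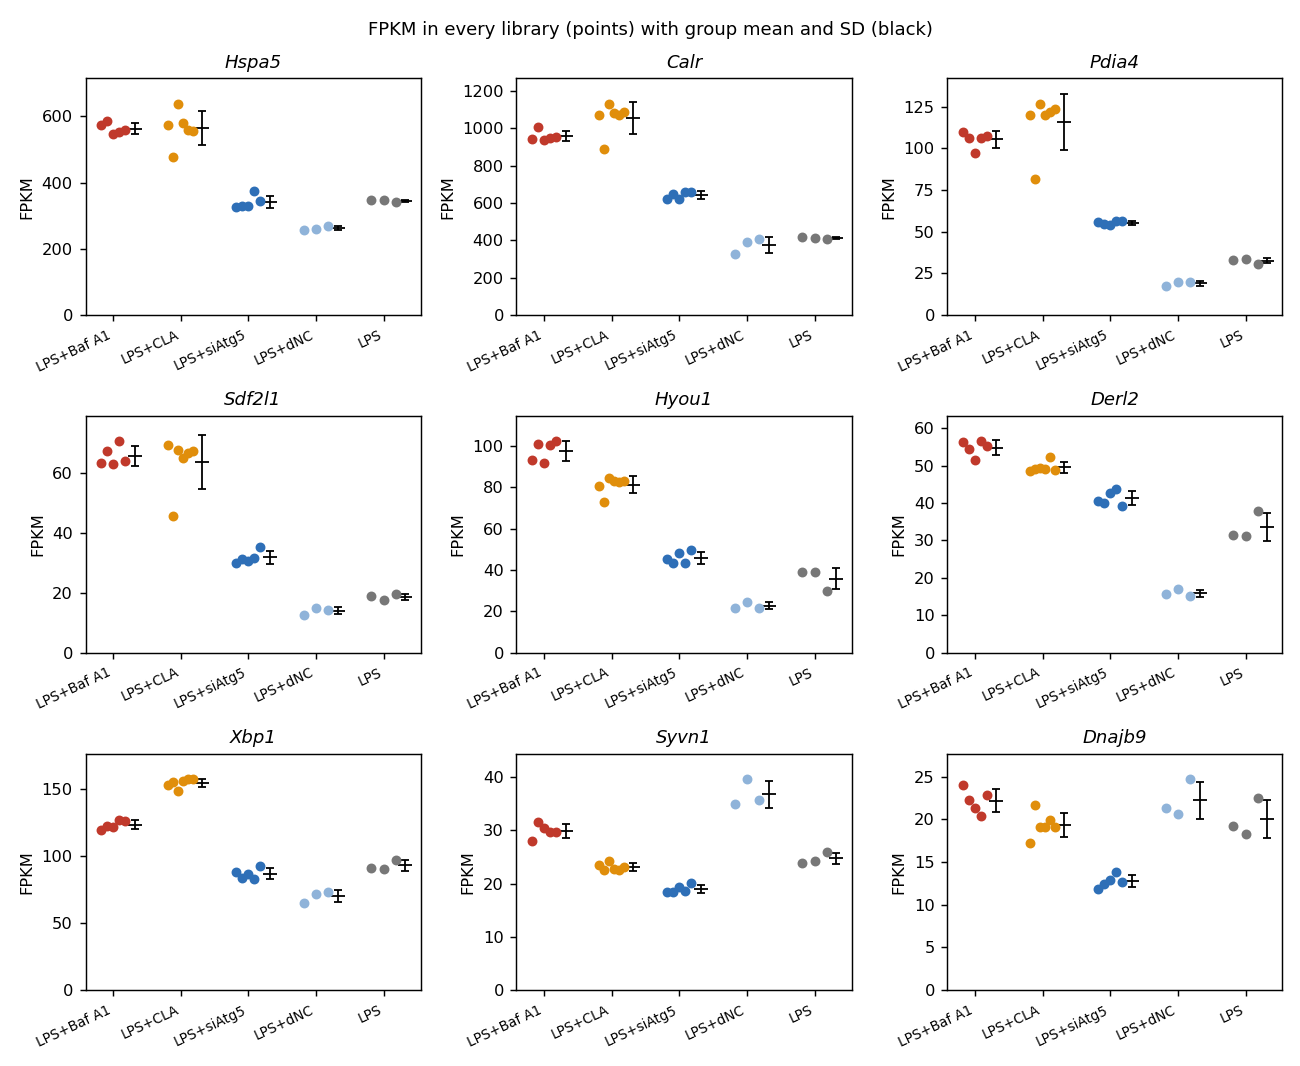
FPKM (vertical axis, from 0) of 9 genes in every library, with 1 point per library, and the group mean with its SD in black, for the 5 groups on the horizontal axis. Hspa5, Calr, Pdia4, Sdf2l1 and Hyou1 sit high in LPS+Baf A1 and LPS+CLA, while Syvn1 is highest in LPS+dNC (mean 36.7 FPKM) and Dnajb9 lowest in LPS+siAtg5 (mean 12.7 FPKM).

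Addition of Baf A1 to LPS was the first comparison of the design, and it raised nearly the whole list. Of the 36 genes, 33 rose, 1 fell and 2 were not called (limma with Benjamini-Hochberg adjustment over all 11070 genes, adjusted p under 0.05), against 32.7% of all genes called up and 25.1% called down. The members' median log2 change was 0.74, against 0.04 over all genes tested. The disulfide and proline enzymes had the highest median of the 6 roles, with 8 of 8 up and a median log2 change of 1.21. All 33 rises were also free of overlap between the groups, against 30.8% of all genes not overlapping and higher.

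Among the chaperones and their cofactors 8 of 9 rose. Sdf2l1, an ER protein that binds chaperone complexes, had 63.3, 67.5, 63.0, 70.6 and 64.0 FPKM in LPS+Baf A1 libraries, against 18.9, 17.6 and 19.6 FPKM in LPS libraries. The groups did not overlap, and the log2 change was 1.76 ± 0.0963 (SE, adjusted p = 1.1e-12). Hyou1, a large chaperone that exchanges nucleotides on BiP, had 93.3, 101.1, 91.6, 100.2 and 102.2 FPKM in LPS+Baf A1 libraries, against 39.0, 38.8 and 29.7 FPKM in LPS libraries (log2 change 1.43 ± 0.0739, SE). For both genes the lowest LPS+Baf A1 library lay far above the highest LPS library. Hspa5, the central Hsp70 chaperone BiP, had 573, 585, 548, 553 and 558 FPKM in LPS+Baf A1 libraries, against 346.78, 346.79 and 341 FPKM in LPS libraries. BiP mRNA thus rose by 0.71 ± 0.0619 on the log2 scale (SE, adjusted p = 2.2e-09), less than Sdf2l1 and Hyou1. Dnajb9, the co-chaperone ERdj4, had 24.0, 22.3, 21.4, 20.4 and 22.9 FPKM in LPS+Baf A1 libraries, against 19.3, 18.3 and 22.5 FPKM in LPS libraries. Its groups overlapped and it was not called (0.14 ± 0.0741, SE, adjusted p = 0.102), but without LPS replicate 3 it was called up (0.23, adjusted p = 0.0153).

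All 8 disulfide and proline enzymes and both lectin chaperones rose. Pdia4, a disulfide isomerase with several thioredoxin-like domains, had 110, 106.39, 96.97, 106.4 and 107 FPKM in LPS+Baf A1 libraries, against 33.0, 33.8 and 30.8 FPKM in LPS libraries (log2 change 1.67 ± 0.0937, SE). P4hb, the archetypal disulfide isomerase PDI and a subunit of the collagen prolyl hydroxylase, had 405, 421, 391, 409 and 408 FPKM in LPS+Baf A1 libraries, against 153, 158.1 and 157.6 FPKM in LPS libraries (1.38 ± 0.0425, SE). Txndc5, another thioredoxin-domain isomerase, had 50.4, 50.9, 47.7, 50.9 and 50.1 FPKM in LPS+Baf A1 libraries, against 18.8, 19.5 and 18.6 FPKM in LPS libraries (1.35 ± 0.0781, SE). None of these groups overlapped, and adjusted p-values were 1.7e-12 for Pdia4, 1.4e-16 for P4hb and 2.5e-12 for Txndc5 by limma. Calr, the soluble calcium-binding lectin calreticulin, averaged 959 ± 28.5 FPKM in LPS+Baf A1 (SD, n = 5) and 413 ± 5.43 FPKM in LPS (SD, n = 3). Its membrane-bound relative Canx averaged 159 ± 3.21 FPKM in LPS+Baf A1 (SD, n = 5) and 113 ± 8.72 FPKM in LPS (SD, n = 3), a smaller rise of 0.49 on the log2 scale against 1.21 for Calr. Erp44, which retains client proteins that escape to the Golgi, rose least among the 8 enzymes (0.44 ± 0.0491, SE). About 25% of the exon bases of Ppib overlap the antisense gene Snx22 in the GENCODE annotation, and no source used here states the strand setting of the counting.

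All 7 genes of ER-associated degradation and all 7 of entry into and exit from the ER rose with Baf A1, with median log2 changes of 0.56 and 0.81. Edem1, a mannosidase-like protein that marks glycoproteins for degradation, rose most of the degradation genes (0.95 ± 0.0474, SE) and Syvn1, the ubiquitin ligase HRD1, least (0.26 ± 0.0489, SE, adjusted p = 9.5e-05). Sec11c, a signal peptidase subunit, led the other group (1.05 ± 0.106, SE), followed by Sec24d, a cargo-binding subunit of the COPII coat (1.00 ± 0.0425, SE). Of 50-base windows of Sec61b transcripts 31.5% are shared with Gm10320, so its reads may be split between them.

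Of the 3 sensors and transcription factors, 1 rose, 1 fell and 1 was not called with Baf A1. Xbp1 had 119, 122, 121, 127 and 126 FPKM in LPS+Baf A1 libraries, against 90.9, 90.3 and 97.2 FPKM in LPS libraries, without overlap (log2 change 0.40 ± 0.0442, SE, adjusted p = 6.4e-08). Atf6 had 15.99, 16.3, 17.2, 17.6 and 16.8 FPKM in LPS+Baf A1 libraries, against 22.3, 21.0 and 18.2 FPKM in LPS libraries, and was the 1 member that fell (-0.27 ± 0.0555, SE, adjusted p = 0.000233). Ern1, which encodes the sensor IRE1, had 7.51, 7.09, 7.36, 7.0 and 7.46 FPKM in LPS+Baf A1 libraries, against 8.14, 7.90 and 5.39 FPKM in LPS libraries, and was not called (0.04 ± 0.0879, SE, adjusted p = 0.704). The LPS values of Ern1 spread on both sides of the treated ones, and the sign of its change turned without LPS replicate 3 (-0.12, adjusted p = 0.131). Marker lists of other cells differed as well. The 14 fibroblast, mural and endothelial markers summed to 50.3 to 63.9 FPKM in LPS+Baf A1 and 33.5 to 35.7 FPKM in LPS. Of 11 tested, 5 were called up and 1 down. Fn1, 1 of these markers, averaged 28.7 FPKM in LPS+Baf A1 and 5.80 FPKM in LPS. Acta2 (1.68 and 1.31 FPKM) and Tagln (1.79 and 1.24 FPKM) differed far less. The 15 astrocyte markers summed to 45.6 to 52.1 FPKM in LPS+Baf A1 and 33.1 to 35.8 FPKM in LPS. Of 14 tested, 3 were called up and 1 down, against 32.7% of all genes up and 25.1% down. Among them Glul averaged 28.1 FPKM in LPS+Baf A1 and 21.4 FPKM in LPS. Gfap (0.9 and 2.05 FPKM) and Clu (1.46 and 1.92 FPKM) averaged lower in LPS+Baf A1. The 11 border macrophage and monocyte markers summed to 548 to 602 FPKM in LPS+Baf A1 and 790 to 915 FPKM in LPS. Of 8 tested, 2 were called up and 2 down. Ms4a7 averaged 335 FPKM in LPS+Baf A1 and 696 FPKM in LPS, but Pf4 209 and 97.7 FPKM. The 13 neuron markers summed to 9.76 to 14.4 FPKM in LPS+Baf A1 and 17.7 to 21.7 FPKM in LPS, with 0 of 9 tested called up and 4 down. The 17 microglia markers summed to 4704 to 4882 FPKM in LPS+Baf A1 and 5224 to 5263 FPKM in LPS. Of 15 tested, 6 were called up and 6 down. The part of these marker lists in the result was not tested. The 34 calls held in direction in all 17 alternatives run for this comparison.

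**Figure D2:**
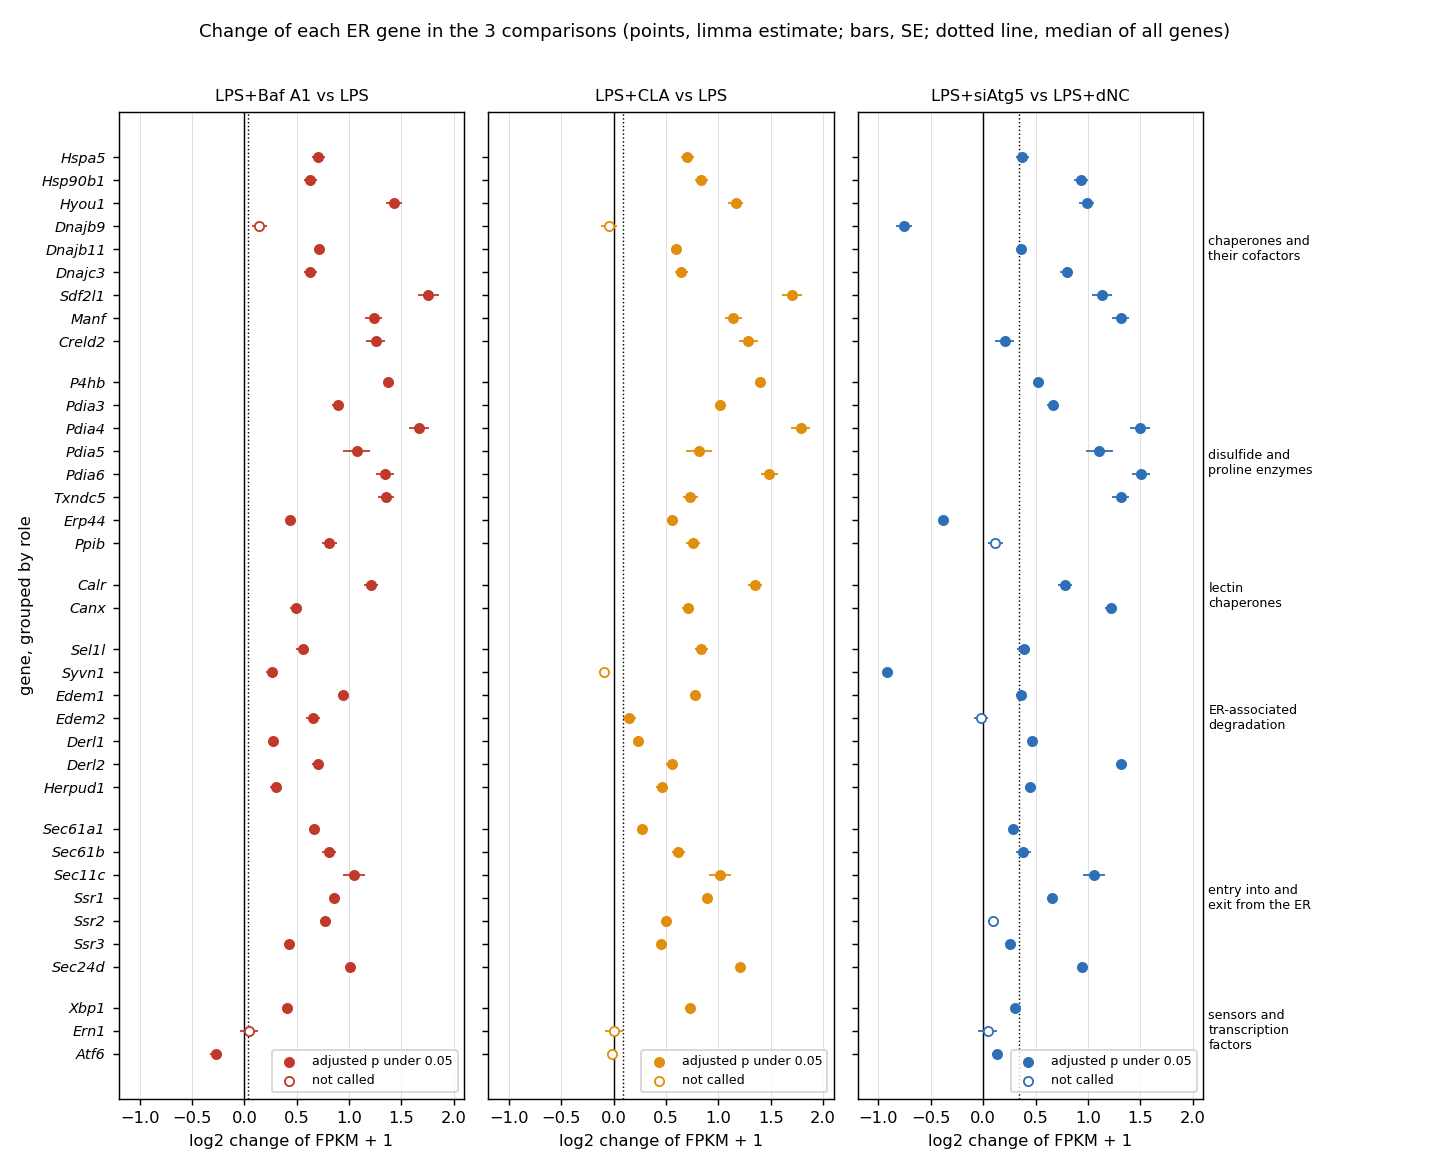
Log2 change of FPKM + 1 (horizontal axis) of each of the 36 genes, grouped by role (vertical axis), in LPS+Baf A1 vs LPS, LPS+CLA vs LPS and LPS+siAtg5 vs LPS+dNC, with the SE as a bar, filled points for called genes and a dotted line at the median of all genes tested. Most points lie right of the dotted line in the first and second panel, and in the third Syvn1 (-0.91), Dnajb9 (-0.76) and Erp44 (-0.38) lie left of 0 and the dotted line is at 0.34.

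Addition of CLA to LPS, the other comparison with LPS alone, also raised most of the list. Of the 36 genes, 32 rose, 0 fell and 4 were not called, against 40.4% of all genes up and 22.6% down, with a members' median of 0.73 against 0.09 over all genes. Without LPS+CLA replicate 2 there were 31 rises and 0 falls, and without all 3 libraries that lie apart 32 and 1. The shares of all genes called in these fits are not given here. Groups did not overlap for 31 genes that were higher with CLA, against 32.7% of all genes. Both comparisons use the same 3 LPS libraries, so their values are given side by side and are not independent.

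The isomerases and chaperones again held the largest changes. Pdia4 had 81.8 FPKM in its lowest LPS+CLA library, a median of 121 and a highest value of 127 FPKM, against 33.0, 33.8 and 30.8 FPKM in LPS libraries (log2 change 1.78 ± 0.0907, SE, adjusted p = 1.2e-13). Sdf2l1 had 45.6, 67.1 and 69.3 FPKM as the lowest, median and highest LPS+CLA library, against 18.9, 17.6 and 19.6 FPKM in LPS libraries (1.702 ± 0.0932, SE). For both genes the lowest value was that of replicate 2 and still lay above every LPS library. Pdia6, which acts on disulfide bonds and on the IRE1 sensor, had 166, 237 and 241 FPKM as the lowest, median and highest LPS+CLA library, against 79.6, 80.8 and 78.0 FPKM in LPS libraries (1.49 ± 0.0821, SE). P4hb had 405.2, 412 and 418 FPKM as the lowest, median and highest LPS+CLA library, against 153, 158.1 and 157.6 FPKM in LPS libraries (1.395 ± 0.0412, SE). Calr had 890, 1079 and 1132 FPKM as the lowest, median and highest LPS+CLA library, against 419, 412 and 408 FPKM in LPS libraries (1.35 ± 0.0634, SE). P4hb was the tightest of these, with a spread over all 6 LPS+CLA libraries of 405.2 to 418 FPKM, and all adjusted p-values of these genes were at most 4.9e-13 (limma).

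Hspa5 had 477, 567 and 638 FPKM as the lowest, median and highest LPS+CLA library, against 346.78, 346.79 and 341 FPKM in LPS libraries (log2 change 0.70 ± 0.0600, SE, adjusted p = 7.9e-10). Xbp1 had 149, 155 and 157 FPKM as the lowest, median and highest LPS+CLA library, against 90.9, 90.3 and 97.2 FPKM in LPS libraries (0.73 ± 0.0428, SE, adjusted p = 1.4e-12). Xbp1 mRNA was the 1 regulator that rose. The 4 genes not called with CLA were Dnajb9 (-0.05, adjusted p = 0.6), Syvn1 (-0.09, adjusted p = 0.0888), Ern1 (0.00, adjusted p = 0.964) and Atf6 (-0.01, adjusted p = 0.853) by limma. Syvn1 was called down under median-of-ratios scaling (-0.23, adjusted p = 0.000303) and quantile normalization (-0.20, adjusted p = 0.00109). Atf6 was called down under median-of-ratios scaling (-0.15, adjusted p = 0.0348). Ern1 had 6.45, 6.93 and 8.03 FPKM as the lowest, median and highest LPS+CLA library, inside the range of 5.39 to 8.14 FPKM of the LPS libraries. Without LPS replicate 3, however, Ern1 was called down (-0.16, adjusted p = 0.0414). Edem2, a relative of Edem1, was called only narrowly (0.15 ± 0.0635, SE, adjusted p = 0.0453), and Derl1 rose by 0.23 on the log2 scale, but neither passed under median-of-ratios scaling. The 13 neuron markers summed to 2.39 to 12.3 FPKM in LPS+CLA and 17.7 to 21.7 FPKM in LPS, with 8 of 9 tested called down. The 11 border macrophage and monocyte markers summed to 501 to 733 and 790 to 915 FPKM in that order (1 of 8 tested up, 4 down). The 17 microglia markers summed higher, at 5829 to 6234 and 5224 to 5263 FPKM (5 of 15 tested up, 4 down). So did the 15 astrocyte markers, at 40.9 to 73.9 and 33.1 to 35.8 FPKM (3 of 14 tested up, 4 down). The part of these lists in the result was not tested.

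The difference between the CLA and Baf A1 libraries was tested directly. With LPS+CLA over LPS+Baf A1, 10 of the 36 genes were higher, 12 were lower and 14 were not called, against 35.4% of all genes higher and 19% lower. The members' median was -0.02, against 0.06 over all genes. Txndc5 had 25.8, 33.2 and 34.6 FPKM as the lowest, median and highest LPS+CLA library, against 50.4, 50.9, 47.7, 50.9 and 50.1 FPKM in LPS+Baf A1 libraries (log2 difference -0.62 ± 0.0648, SE, adjusted p = 4.0e-08). Edem2 averaged 20.8 ± 0.865 FPKM in LPS+CLA (SD, n = 6) and 30.0 ± 0.949 FPKM in LPS+Baf A1 (SD, n = 5), a log2 difference of -0.51. Sec61a1, the channel-forming subunit of the translocon, averaged 64.8 ± 1.83 FPKM in LPS+CLA (SD, n = 6) and 85.3 ± 2.17 FPKM in LPS+Baf A1 (SD, n = 5), a log2 difference of -0.39. For these 3 genes the groups did not overlap. Syvn1 (-0.35) and the translocon-associated subunit Ssr2 (-0.28) were also lower with CLA. In the other direction, Xbp1 was higher with CLA by 0.32 (adjusted p = 1.4e-07), Sel1l, the partner of HRD1, by 0.28, Atf6 by 0.26, Canx by 0.22 and Hsp90b1, the ER Hsp90 GRP94, by 0.21 on the log2 scale. Hspa5 differed by -0.00 with a 95% interval of -0.11 to 0.11, P4hb by 0.02 with an interval of -0.05 to 0.09 and Sdf2l1 by -0.06 with an interval of -0.23 to 0.11. Ern1 differed by -0.04 with an interval of -0.19 to 0.12.

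**Figure D3:**
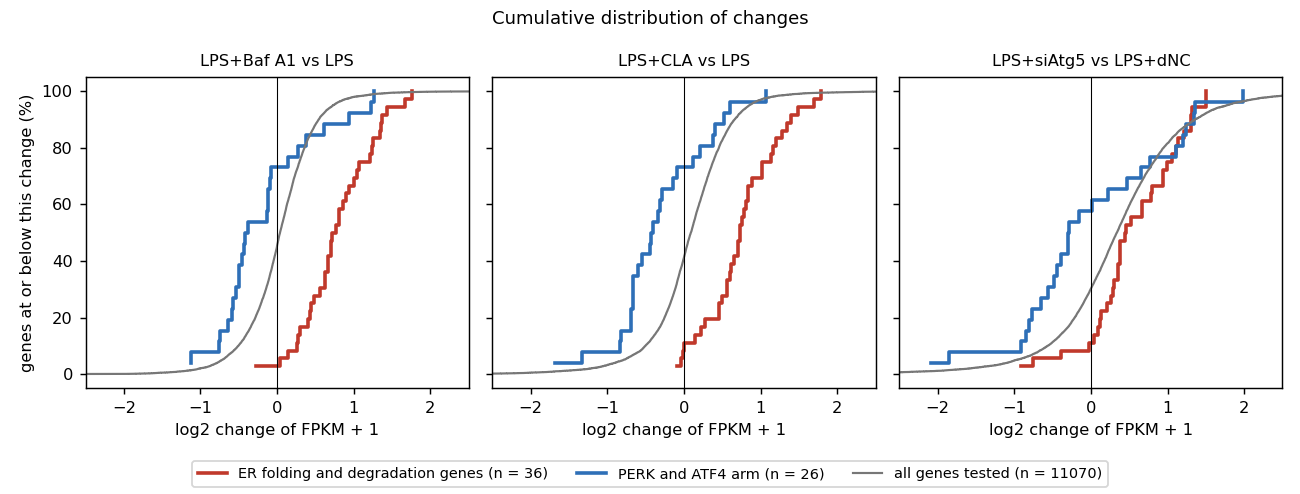
Share of genes (vertical axis, %) at or below a given log2 change of FPKM + 1 (horizontal axis) for the 36 ER folding and degradation genes, the 26 genes of the PERK and ATF4 arm and all 11070 genes tested, in the same 3 comparisons. The ER genes lie right of all genes with Baf A1 (medians 0.74 and 0.04) and CLA (0.73 and 0.09) and by less with siAtg5 at the scaling as deposited (0.46 and 0.34), and the median of the PERK and ATF4 arm lies left of 0 in each panel.

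Knockdown of Atg5 gave a mixed picture. With LPS+siAtg5 over LPS+dNC, 29 of the 36 genes rose, 3 fell and 4 were not called, but 59.6% of all genes were also called up and 21.6% down. The members' median was 0.46, against 0.34 over all genes, a difference of 0.12. Groups did not overlap for 29 genes that were higher with siAtg5, against 57.2% of all genes. Under median-of-ratios scaling, which centres the typical gene, 19 members were up and 8 down with 41.8% of all genes up and 36.5% down, and 0.05 became the median of all genes. Under quantile normalization 28 were up and 5 down, against 38% and 39.4% of all genes, and the members' median was 0.39 against -0.01 over all genes. How far the members stood from all genes thus depended on the scaling, with medians of 0.14 and 0.05 under median-of-ratios scaling. The same libraries held more RNA of other cells: the 15 astrocyte markers summed to 465.5 to 541 FPKM in LPS+siAtg5 and 29.1 to 69.8 FPKM in LPS+dNC, with 14 of 14 tested called up. Gfap averaged 126 ± 7.81 FPKM in LPS+siAtg5 (SD, n = 5) and 2.14 ± 1.91 FPKM in LPS+dNC (SD, n = 3). The 13 neuron markers summed to 68.9 to 83.5 FPKM in LPS+siAtg5 and 3.74 to 17.9 FPKM in LPS+dNC, and 14 fibroblast, mural and endothelial markers to 163 to 215 FPKM in LPS+siAtg5 and 10.98 to 25.3 FPKM in LPS+dNC. The 17 microglia markers were higher too, at 5040 to 5309 FPKM in LPS+siAtg5 and 3636 to 4099 FPKM in LPS+dNC. Of 15 tested, 13 were called up and 2 down, with a median of 0.76. The 11 border macrophage and monocyte markers summed to 584 to 646 FPKM in LPS+siAtg5 and 840 to 929 FPKM in LPS+dNC, with 3 of 8 tested called up and 4 down. Their part in the changes below was not tested, and in such bulk samples a different share of cells and a different amount of RNA per cell cannot be told apart.

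The isomerases Pdia6 and Pdia4 rose most. Pdia6 had 143, 138, 142.94, 137 and 146 FPKM in LPS+siAtg5 libraries, against 44.5, 51.7 and 51.5 FPKM in LPS+dNC libraries (log2 change 1.51 ± 0.0848, SE, adjusted p = 2.2e-13). Pdia4 had 55.8, 54.7, 53.8, 56.4 and 56.6 FPKM in LPS+siAtg5 libraries, against 17.5, 19.81 and 19.8 FPKM in LPS+dNC libraries (1.496 ± 0.0937, SE). The groups did not overlap for either gene. Derl2, a channel protein of ER-associated degradation, had 40.5, 40.1, 42.7, 43.7 and 39.3 FPKM in LPS+siAtg5 libraries, against 15.8, 16.9 and 15.1 FPKM in LPS+dNC libraries (1.32 ± 0.0556, SE). Txndc5 had 38.7, 39.5, 36.4, 39.8 and 43.6 FPKM in LPS+siAtg5 libraries, against 14.1, 17.6 and 14.4 FPKM in LPS+dNC libraries (1.31 ± 0.0781, SE). Manf, a secreted ER protein that protects neurons in rodents, had 65.1, 71.1, 70.2, 71.5 and 69.9 FPKM in LPS+siAtg5 libraries, against 25.4, 28.7 and 28.2 FPKM in LPS+dNC libraries (1.31 ± 0.0832, SE). All 5 of these rises were called in every alternative run for this comparison, the 2 other scalings included.

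The falls with siAtg5 were of genes from different roles. Syvn1 had 18.4, 18.5, 19.4, 18.7 and 20.1 FPKM in LPS+siAtg5 libraries, against 34.9, 39.6 and 35.7 FPKM in LPS+dNC libraries (-0.91 ± 0.0489, SE, adjusted p = 9.2e-14). Dnajb9 had 11.9, 12.5, 12.9, 13.8 and 12.6 FPKM in LPS+siAtg5 libraries, against 21.4, 20.6 and 24.7 FPKM in LPS+dNC libraries (-0.76 ± 0.0741, SE). Erp44 had 37.0, 37.2, 36.4, 35.4 and 39.8 FPKM in LPS+siAtg5 libraries, against 51.3, 47.9 and 47.3 FPKM in LPS+dNC libraries (-0.38 ± 0.0491, SE). None of these 3 pairs of groups overlapped, and the 3 falls were kept under both other scalings. Hspa5 had 328, 330, 331, 374 and 345 FPKM in LPS+siAtg5 libraries, against 258, 260.1 and 270 FPKM in LPS+dNC libraries (0.37 ± 0.0619, SE, adjusted p = 8.8e-06). Xbp1 had 88.0, 83.5, 86.6, 82.8 and 92.5 FPKM in LPS+siAtg5 libraries, against 65.2, 71.6 and 73.4 FPKM in LPS+dNC libraries (0.30 ± 0.0442, SE). Both rises were about as large as the median of all genes, and under median-of-ratios scaling Hspa5 was at 0.05 and Xbp1 at -0.02, neither called. Under quantile normalization both stayed called up. Atf6, with 20.4, 19.5, 21.6, 20.2 and 19.5 FPKM in LPS+siAtg5 libraries and 19.1, 17.5 and 18.5 FPKM in LPS+dNC libraries, was called up (0.14, adjusted p = 0.0295), but it fell under median-of-ratios scaling (-0.17, adjusted p = 0.0145). Ern1, with 6.99, 6.46, 7.47, 6.56 and 6.76 FPKM in LPS+siAtg5 libraries and 6.72, 6.64 and 6.49 FPKM in LPS+dNC libraries, was not called (0.04, adjusted p = 0.667).

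The control transfection had values of its own. With LPS+dNC over LPS, 4 of the 36 genes rose, 19 fell and 13 were not called, against 29% of all genes up and 28.1% down, and the members' median was -0.20, against 0.00 over all genes. Without the 3 libraries that lie apart, 9 rose and 20 fell, and the share of all genes called in that fit is not given here. That fit lacks LPS+dNC replicate 1 and LPS replicate 3, so both groups compared are smaller. Microglia markers moved with them: the 17 genes summed to 3636 to 4099 FPKM in LPS+dNC and 5224 to 5263 FPKM in LPS, with 4 of 15 tested called up, 8 down and a median of -0.35, and their part in the result was not tested. Derl2 had 15.8, 16.9 and 15.1 FPKM in LPS+dNC libraries, against 31.4, 31.3 and 37.8 FPKM in LPS libraries (-1.02 ± 0.0622, SE, adjusted p = 3.5e-12). Manf (-0.86), Pdia4 (-0.74), Pdia6 (-0.68) and Canx (-0.66) followed. Erp44 was higher in LPS+dNC by 0.65 and Syvn1 by 0.55 on the log2 scale, Ppib, a prolyl isomerase, by 0.46 and Ssr2 by 0.17. The call of Ssr2 was lost under both other scalings (adjusted p = 0.0798 and 0.0628, limma), when only the groups compared were fitted (adjusted p = 0.142) and without LPS replicate 1 (adjusted p = 0.0618) or 2 (adjusted p = 0.0711). Of the regulators and BiP, Xbp1 (-0.40, adjusted p = 3.4e-07), Hspa5 (-0.39, adjusted p = 4.6e-05) and Atf6 (-0.15, adjusted p = 0.0475) were lower in LPS+dNC, and Ern1 was not called (-0.08, adjusted p = 0.517). Derl2, Manf, Pdia4 and Pdia6 are also among the largest rises with siAtg5 over LPS+dNC, and the 2 comparisons share the LPS+dNC libraries.

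Set against LPS alone, the siAtg5 libraries had 28 members higher, 4 lower and 4 not called, against 61.2% of all genes up and 15.6% down, with medians of 0.38 and 0.31. Groups did not overlap for 27 members that were higher, against 57.2% of all genes. Under median-of-ratios scaling the counts were 11 and 10, against 35% and 35.2% of all genes. Quantile normalization gave 24 and 7, against 34.4% and 38.1% of all genes, with a members' median of 0.23 against -0.03 over all genes. Txndc5 (1.02), Pdia6 (0.82), Pdia4 (0.75), Sdf2l1 (0.73) and Pdia3 (0.72), the isomerase that works with calreticulin and calnexin, were the largest rises. Dnajb9 (-0.61), Syvn1 (-0.36), Herpud1 (-0.17), which assembles the HRD1 complex, and Xbp1 (-0.10) were the falls. Without LPS replicate 3 the calls of Herpud1 (-0.11, adjusted p = 0.0812, limma) and Xbp1 (-0.06, adjusted p = 0.22) were lost. The call of Xbp1 was also lost when only the groups compared were fitted (adjusted p = 0.102), with array weights (adjusted p = 0.0789), and without LPS replicate 1 (adjusted p = 0.0533) or LPS+siAtg5 replicate 1, 2, 3 or 4 (adjusted p between 0.0539 and 0.112). Hspa5 differed from LPS by -0.02, with a 95% interval of -0.15 to 0.11. Ern1 (-0.04, adjusted p = 0.715) and Atf6 (-0.01, adjusted p = 0.853) were not called either. Dnajb9 and Syvn1 were therefore lower in LPS+siAtg5 than in either comparator. Erp44, lower than in LPS+dNC, was higher in LPS+siAtg5 than in LPS (0.27, adjusted p = 3.6e-05, limma).

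The Baf A1 effect minus the siAtg5 effect, an interaction contrast in which each effect has its own comparator, was called positive for 19 members and negative for 5, against 20.4% and 52.3% of all genes, and was not called for 12. The members' median was 0.18, against -0.30 over all genes. Syvn1 differed most (1.17 ± 0.0692, SE, adjusted p = 1.6e-12), with a log2 change of 0.26 with Baf A1 and -0.91 with siAtg5. Creld2, an ER protein secreted under stress, differed by 1.05, with 1.26 with Baf A1 and 0.20 with siAtg5. Dnajb9 differed by 0.90, P4hb by 0.85 and Erp44 by 0.82, all towards Baf A1. Hspa5 differed by 0.33 (adjusted p = 0.00185), while Xbp1 (0.10, adjusted p = 0.15) and Ern1 (0.00, adjusted p = 0.995) were not called. Canx (-0.73), Derl2 (-0.62), Atf6 (-0.41), Hsp90b1 (-0.31) and Derl1 (-0.18) were negative in this contrast, which compares changes and not levels. Derl2, for instance, averaged 54.9 FPKM in LPS+Baf A1 and 41.25 FPKM in LPS+siAtg5, but 33.5 FPKM in LPS and 15.9 FPKM in LPS+dNC. Under median-of-ratios scaling 24 members were called positive and 2 negative, against 31.5% and 38% of all genes. The medians were then 0.44 for the members and -0.06 over all genes. Atf6 (-0.16, adjusted p = 0.118, limma), Hsp90b1 (-0.04) and Derl1 (0.08) were not called under that scaling. Quantile normalization gave 19 and 5, against 34.9% and 33.4% of all genes, with medians of 0.26 and 0.01.

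Most members rose whether or not their promoter window held an exact ERSE or ERSE-II. Members with neither are not free of the other motifs: Sec24d and Txndc5 hold the UPRE, and P4hb and Pdia4, among others, hold CCACG. With Baf A1, all 10 members with an ERSE or ERSE-II rose (median log2 change 0.67), and 17 of the 19 members whose promoter held neither rose too (0.81). With CLA, 9 of 10 and 17 of 19 rose, with medians of 0.70 and 0.76, and with siAtg5 over LPS+dNC 9 of 10 and 14 of 19 rose, with medians of 0.62 and 0.39. Over all genes 32.7% were up with Baf A1, 40.4% with CLA and 59.6% with siAtg5, with medians of 0.04, 0.09 and 0.34, so the siAtg5 median of members with neither element was near that of all genes. The member with an ERSE that was not called with CLA (-0.09) and fell by 0.91 with siAtg5 was Syvn1, whose sequence is printed above. Under both other scalings Syvn1 was called down with CLA too (-0.23 and -0.20). Outside the list, 12 other tested genes held an ERSE or ERSE-II. Of these, 3 rose and 5 fell with Baf A1, 5 rose and 6 fell with CLA, and 6 rose and 5 fell with siAtg5, where 25.1%, 22.6% and 21.6% of all genes fell. Nucb1, a calcium-binding protein, rose in all 3 comparisons (1.03, 0.71 and 0.79), and Lrif1 (-0.91, -0.90 and -0.26) and Pan2, a subunit of a deadenylase (-0.54, -0.68 and -0.57), fell in all 3. These 3 genes were chosen after their values were seen.

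**Figure D4:**
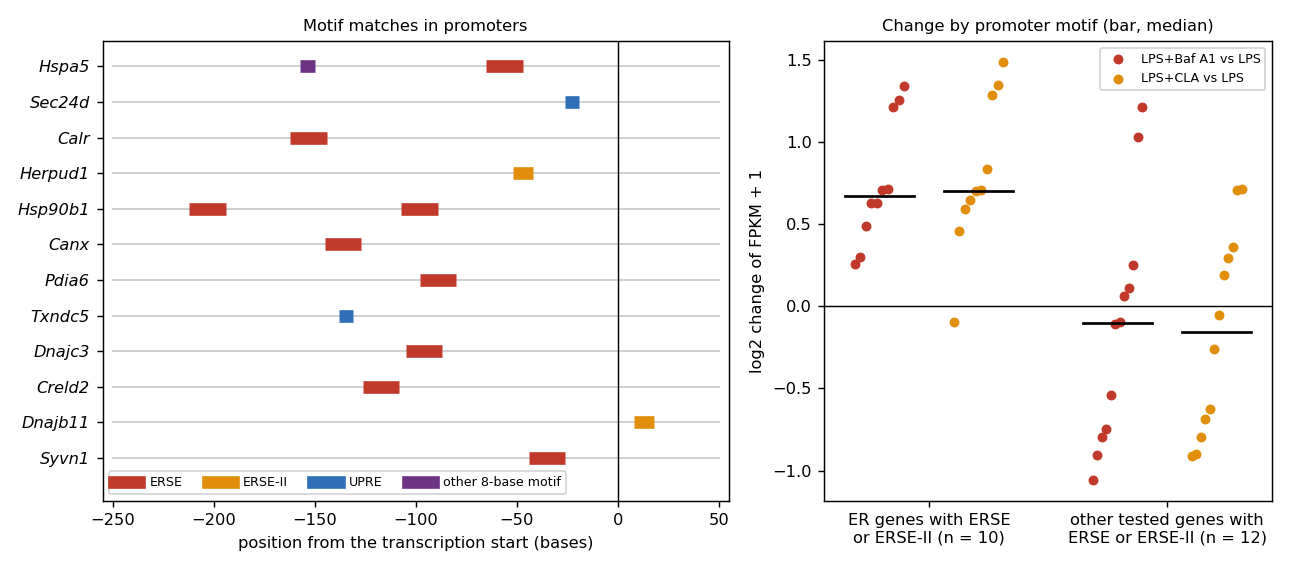
Left, position of each ERSE, ERSE-II, UPRE and other 8-base match relative to the transcription start (horizontal axis, bases) in the 12 members whose promoter holds one (rows). Right, log2 change of FPKM + 1 (vertical axis) with Baf A1 and with CLA for the 10 members and the 12 other tested genes with an ERSE or ERSE-II, with 1 point per gene and the median as a bar. The members' medians are 0.67 and 0.70, while the other genes scatter on both sides of 0 with medians of -0.10 and -0.16.

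Further folding, translocon and ER exit genes mostly rose with Baf A1 and CLA, and most genes of the PERK arm fell. At the scaling as deposited, the counts that follow stand against 32.7% of all genes up and 25.1% down with Baf A1 (median 0.04). The shares were 40.4% and 22.6% with CLA (0.09), and 59.6% and 21.6% with siAtg5 over LPS+dNC (0.34). Under median-of-ratios scaling they were 28.8% and 29% with Baf A1, 30.8% and 31.5% with CLA (-0.01), and 41.8% and 36.5% with siAtg5 (0.05). Under quantile normalization they were 38% and 39.4% with siAtg5. Of 28 tested genes of folding and glycan quality control, 23 rose and 0 fell with Baf A1, 22 rose and 0 fell with CLA, and 18 rose and 5 fell with siAtg5 over LPS+dNC. The medians were 0.50, 0.39 and 0.38 in that order. The siAtg5 count was near the share of all genes up, and was 14 up and 9 down under median-of-ratios scaling. Creld1, a relative of Creld2, averaged 9.76 ± 0.744 FPKM in LPS+Baf A1 (SD, n = 5) and 2.903 ± 0.203 FPKM in LPS (SD, n = 3), and 8.26 ± 0.722 FPKM in LPS+CLA (SD, n = 6). Ganab, the catalytic subunit of glucosidase II, rose by 0.62 on the log2 scale with Baf A1, and Fkbp2, an ER prolyl isomerase, by 0.96 with CLA. With siAtg5 over LPS+dNC, Fkbp9 (2.57) and Fkbp10 (2.401) rose and Selenok (-1.01) and Txndc12 (-0.80) fell.

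The translocon, signal peptidase and oligosaccharyltransferase list had 22 rises and 1 fall among 27 genes with Baf A1, 22 and 2 with CLA, and 16 and 3 with siAtg5 over LPS+dNC (medians 0.44, 0.51 and 0.28). With siAtg5 this again was near the share of all genes, and median-of-ratios scaling gave 9 up and 10 down with a median of -0.04. Quantile normalization gave 14 up and 5 down with a median of 0.14, against -0.01 over all genes. Rpn1, a subunit of the oligosaccharyltransferase that attaches sugars to new proteins, averaged 125 ± 7.4 FPKM in LPS+Baf A1 (SD, n = 5), 129 ± 10.8 FPKM in LPS+CLA (SD, n = 6) and 48.4 ± 1.78 FPKM in LPS (SD, n = 3). Rpn2, another subunit, rose by 0.68 with Baf A1 and 0.64 with CLA on the log2 scale, and Sec62, a translocon partner, fell by 0.49 and 0.24 in the same order. The COPII and ER exit list had 20 rises and 0 falls among 27 genes with Baf A1, 22 and 1 with CLA, and 23 and 2 with siAtg5 over LPS+dNC (medians 0.41, 0.32 and 0.36). The siAtg5 median was about that of all genes, and median-of-ratios scaling gave 11 up and 10 down. Quantile normalization gave 16 up and 2 down with a median of 0.23, against -0.01 over all genes. Surf4, a cargo receptor, rose by 0.93 with Baf A1, but fell with siAtg5 over LPS+dNC (-0.30), where Tmed10, of the p24 cargo receptors, rose (1.11).

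Further degradation genes were less uniform. Of 23 tested, 11 rose and 4 fell with Baf A1, 15 rose and 4 fell with CLA, and 10 rose and 9 fell with siAtg5 over LPS+dNC (medians 0.02, 0.28 and 0.05). Under median-of-ratios scaling the siAtg5 counts were 7 up and 14 down. Vcp, the ATPase that extracts proteins from the ER membrane, averaged 177 ± 2.8 FPKM in LPS+Baf A1 (SD, n = 5), 219 ± 12 FPKM in LPS+CLA (SD, n = 6) and 120 ± 8.37 FPKM in LPS (SD, n = 3). Rnf139, a ubiquitin ligase of the ER membrane, fell in all 3 comparisons (-0.46 with Baf A1, -0.58 with CLA and -1.08 with siAtg5 over LPS+dNC). Of 16 other ER stress regulators, 9 rose and 3 fell with Baf A1, 6 and 4 with CLA, and 6 and 5 with siAtg5 over LPS+dNC (medians 0.21, 0.04 and 0.04). Under median-of-ratios scaling these were 8 and 3 with Baf A1, 4 and 6 with CLA (median -0.05), and 4 and 9 with siAtg5 (median -0.21).

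The PERK and ATF4 arm, with 26 genes tested, moved the other way. With Baf A1 5 rose and 15 fell (median log2 change -0.40), with CLA 5 rose and 17 fell (-0.42), and with siAtg5 over LPS+dNC 9 rose and 15 fell (-0.29). Over all genes 25.1%, 22.6% and 21.6% fell in these comparisons, with medians of 0.04, 0.09 and 0.34. The medians of the arm stayed negative under median-of-ratios scaling (-0.45, -0.52 and -0.54) and quantile normalization (-0.42, -0.44 and -0.35). Atf4, the transcription factor of this arm, averaged 169 ± 2.53 FPKM in LPS+Baf A1 (SD, n = 5) and 237 ± 12.4 FPKM in LPS (SD, n = 3), with an adjusted p of 5.2e-10 by limma. Trib3, an ATF4 target, averaged 8.04 ± 0.487 FPKM in LPS+Baf A1 (SD, n = 5), 5.16 ± 0.66 FPKM in LPS+CLA (SD, n = 6) and 18.8 ± 1.32 FPKM in LPS (SD, n = 3). Ddit3, the stress factor CHOP, averaged 60.2 ± 4.03 FPKM in LPS+CLA (SD, n = 6) and 153 ± 18.7 FPKM in LPS (SD, n = 3). The exceptions include the serine synthesis genes Psat1, which rose by 1.22 with Baf A1 and 1.07 with CLA, and Phgdh, which rose by 0.94 with Baf A1 and 1.98 with siAtg5 over LPS+dNC. Eif2ak3, the gene of PERK itself, also rose with CLA (log2 change 0.60, adjusted p = 3.4e-07, limma). It averaged 4.32 ± 0.33 FPKM in LPS+CLA (SD, n = 6) and 2.51 ± 0.27 FPKM in LPS (SD, n = 3). With LPS+dNC over LPS the same arm rose in 4 and fell in 17 of 26 genes, so its levels were also lower in the transfected control.

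**Figure D5:**
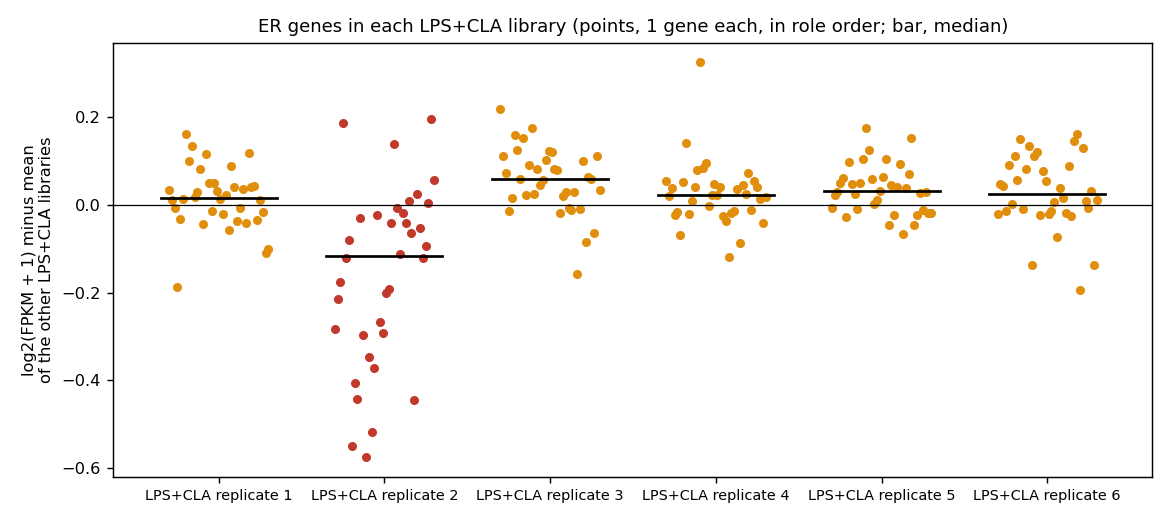
Log2(FPKM + 1) of each of the 36 genes in each LPS+CLA library minus the mean of the other LPS+CLA libraries (vertical axis), with 1 point per gene and the median as a bar, for the 6 libraries on the horizontal axis. Replicate 2 has a median of -0.12 and a lowest value of -0.58, while the medians of the other 5 libraries lie between 0.02 and 0.06.

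Within LPS+CLA, replicate 2 had the lowest FPKM of the group for 23 of the 36 genes. Its median difference to its mates was -0.12 over the 36 genes and -0.10 over all genes tested, with single members between -0.58 and 0.20. Pdia6 (166 FPKM, against 235 to 241 FPKM in the other LPS+CLA libraries) and Pdia4 (81.8 FPKM, against 120 to 127 FPKM) were among the genes that differed most. P4hb, at 405.2 FPKM against 410 to 418 FPKM in the other LPS+CLA libraries, was hardly lower. Without that library the log2 changes with CLA were 1.88 for Pdia4, 1.79 for Sdf2l1, 1.57 for Pdia6, 1.4 for P4hb and 1.397 for Calr.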

How the data were processed

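The deposited table holds FPKM per gene symbol for 22 libraries. For 19 columns the unit is per the file headers. The other 3 columns (LPS+dNC) name no unit, and their range and totals match those of the FPKM columns. Per the submitters' processing notes, fastp 0.18.0, Bowtie2 2.2.8, HISAT2, StringTie 1.3.1 and CASAVA 1.7 were used, and no source used here gives the genome build. FPKM keeps no read depth, so counting error is unknown and the precision is that of the replicate spread.

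Values were taken as log2(FPKM + 1), which understates changes of low genes. Genes reaching 1 FPKM in 3 or more libraries were fitted in a single limma 3.58.1 model (R 4.3.3) of 5 group means (17 residual degrees of freedom, trend and robust variance), and p-values were adjusted by Benjamini-Hochberg over 11070 genes and called under 0.05. The model was tested on simulated data. Of the 1 symbol with more than 1 line, Plin2, the first line was kept. The members and all gene lists were chosen with earlier results of these data known. The text gives the up to 5 called members per direction with the largest log2 change, provided that the mean of the higher group reached 5 FPKM, Xbp1, Ern1, Atf6 and Hspa5, and up to 2 genes per direction of each pathway list by adjusted p. Same-numbered libraries did not deviate together (correlations from -0.131 to 0.155), so replicate numbers were not used as pairs. Alternatives were scaling, pseudocount 0.1, filters, fitting only the groups compared, array weights, the replicate block and leaving out libraries. Promoters came from RefSeq (GRCm38.p6). Shared and antisense sequence was counted over 50-base windows and exons of GENCODE transcripts. Protein sequences were not analysed here.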

Additional observations from a re-analysis of the deposited data

Results flagged for a closer look

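Of 108 groups of 5 or 6 libraries, 22 held a library far from the others of its group (Dixon's ratio above the 95% limit, which chance passes in about 1 of 20 groups). LPS+CLA replicate 2 was the low library for 12 genes. Its values were 358.99 FPKM for Hsp90b1 (other libraries 409.31 to 433.47), 73.08 for Hyou1 (80.72 to 84.57), 45.59 for Sdf2l1 (65.01 to 69.32), 88.81 for Manf (115.78 to 122.23), 38.72 for Creld2 (49.65 to 55.03) and 347.69 for Pdia3 (420.31 to 435.57). They were 81.77 FPKM for Pdia4 (119.88 to 126.69), 166.09 for Pdia6 (235.23 to 241.19), 25.76 for Txndc5 (33.07 to 34.58), 165.68 for Ppib (194.74 to 205.39), 889.54 for Calr (1073.28 to 1131.76) and 31.67 for Sec11c (41.02 to 45.39).

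High libraries were LPS+CLA replicate 3 for Dnajc3 (22.12 FPKM, others 19.11 to 20.23) and Erp44 (47.2, others 45.01 to 45.68), and LPS+CLA replicate 5 for Derl2 (52.35, others 48.48 to 49.29). LPS+Baf A1 replicate 1 was high for Dnajc3 (21.21 FPKM, others 19.31 to 19.76) and Pdia3 (392.44, others 374.28 to 379.32), and LPS+Baf A1 replicate 2 for Calr (1008.85, others 939.33 to 956.48). LPS+Baf A1 replicate 3 was low for Pdia4 (96.97 FPKM, others 106.39 to 109.81) and Txndc5 (47.73, others 50.12 to 50.91). In LPS+siAtg5, replicate 5 was high for Dnajb11 (95.6 FPKM, others 90.3 to 91.39) and replicate 1 low for Manf (65.11, others 69.87 to 71.46).

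For 3 genes the Baf A1 and siAtg5 effects were called in opposite directions and the interaction contrast was called. The Baf A1 effect minus the siAtg5 effect was 1.17 for Syvn1, 0.822 for Erp44 and -0.406 for Atf6 on the log2 scale. The opposite direction of Erp44 was seen against LPS+dNC, whose mean of 48.8 FPKM was the highest of the 5 groups. Over LPS alone, Erp44 was called up with siAtg5 (0.27, adjusted p = 3.6e-05, limma), as with Baf A1 (0.44). For Atf6 the opposite directions held only without rescaling: under median-of-ratios scaling its siAtg5 effect was called down like that of Baf A1 (-0.17, adjusted p = 0.0145, limma) and the interaction was not called (-0.16, adjusted p = 0.118). Its siAtg5 call was also lost with the replicate block (adjusted p = 0.0706).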

How the results depend on the processing

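Direction and call of all 34 members called with Baf A1 held in all 17 alternatives, of 30 of 32 with CLA in 18, and of 22 of 32 with siAtg5 over LPS+dNC in 17. Median-of-ratios scaling gave 19 rises and 8 falls with siAtg5 over LPS+dNC, 2 falls with CLA, 11 and 10 with siAtg5 over LPS, 6 members higher with CLA than with Baf A1 and 2 negative interaction calls. It gave the highest mean in LPS+Baf A1 for 21 members, in LPS+CLA for 10, in LPS+dNC for 3 and in LPS for 2. It gave the lowest in LPS+dNC for 19, in LPS+siAtg5 for 10, in LPS for 7 and in LPS+Baf A1 for 0. Reversed under it were, with siAtg5 over LPS+dNC, Creld2 (-0.11), Ppib (-0.21), Sec61a1 (-0.032), Ssr2 (-0.23), Ssr3 (-0.064), Xbp1 (-0.017), Ern1 (-0.24) and Atf6 (-0.17), Ern1 with Baf A1 (-0.0090) and CLA (-0.12), and Derl1 in the interaction (0.076). Quantile normalization gave 5 falls with siAtg5 over LPS+dNC, 1 with CLA and 7 with siAtg5 over LPS, and reversed Ern1 (-0.36) and Atf6 (-0.10) with siAtg5 over LPS+dNC and Ern1 with CLA (-0.12). Array weights gave 1 fall with CLA and reversed Ern1 with Baf A1 (-0.10) and CLA (-0.16) and Dnajb9 with CLA (0.011). Without the 3 libraries that lie apart there were 1 fall with CLA and 9 rises with LPS+dNC over LPS, and Ern1 with Baf A1 (-0.12) and CLA (-0.19), Edem2 with siAtg5 over LPS+dNC (0.062) and Dnajb9 with CLA (0.0066) reversed. The cause of these changes was not tested. Shares of all genes called are given only for the deposited, median-of-ratios and quantile scalings. Member counts from the other fits have no such share beside them.

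Leaving out 1 library at a time gave 33 to 34 rises and 1 fall with Baf A1, 31 to 32 rises and 0 to 1 falls with CLA, and 27 to 29 rises and 3 falls with siAtg5 over LPS+dNC. With siAtg5 over LPS it gave 26 to 28 and 3 to 4, with LPS+dNC over LPS 3 to 5 and 18 to 20, with CLA over Baf A1 8 to 12 and 11 to 12, and in the interaction 17 to 20 and 5 to 6. Edem2 with siAtg5 over LPS+dNC reversed without LPS+dNC replicate 1 (0.062), and Ern1 with Baf A1 without LPS replicate 3 (-0.12). With CLA, 3 genes that were not called changed sign: Atf6 (from -0.093 to 0.048), Dnajb9 (from -0.10 to 0.038) and Ern1 (from -0.16 to 0.097). The replicate numbers are only shared numbers, and a fit with the replicate block ended the calls of Creld2 (0.19, adjusted p = 0.0713, limma) and Atf6 (0.13, adjusted p = 0.0706) with siAtg5 over LPS+dNC and of Edem2 with CLA (0.14, adjusted p = 0.123), and no other call in these 3 comparisons.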
